A study of Mus musculus with 63 samples.

Results

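Ribosomal protein genes encode the protein part of the cytosolic ribosome. The members described here are the rows of the expression table whose symbol is *Rpsa* or follows the naming of the large (*Rpl*) and small (*Rps*) subunit proteins, with a mean normalised count of at least 10 over the libraries. Of 24766 genes, 85 had such a symbol and 82 passed the minimum. The 3 below it were *Rpl3l* (mean 0.909), *Rpl32l* (3.41) and *Rpl39l* (4.22), and the lowest kept were *Rpl6l* (48.4) and *Rps27* (232). The 82 comprised 43 large subunit genes, 30 small subunit genes, the 3 stalk genes *Rplp0*, *Rplp1* and *Rplp2*, and 6 paralogues or copies (*Rpl7l1*, *Rpl22l1*, *Rpl36al*, *Rps27l*, *Rpl6l* and *Rps4l*). *Fau* and *Rack1* also encode ribosomal proteins, and *Rps3a1* is a small subunit gene, but their symbols fall outside the naming rule and they are given separately.

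Each ribosome holds 1 copy of nearly every one of these proteins, bound to the rRNAs that RNA polymerase I and III transcribe. The genes are transcribed in concert in dividing cells, and MYC is a known activator of them and of rRNA synthesis. Their mRNAs are known as TOP mRNAs, because they begin with a run of pyrimidines through which mTOR signalling controls their translation. In the intestine, ribosome production is high in crypt base cells and in tumours that have lost *Apc*.

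Small intestinal tumours were taken from 2 mice, 1 female and 1 male, that carried *Villin-creERT2*, 1 conditional *Apc* allele (*Apc* fl/+) and the *Rosa26* Confetti reporter, whose cre is driven in the intestinal epithelium. The mice, at least 8 weeks old, received 4 mg of tamoxifen and, 10 days later, 200 mg per kg of the mutagen ENU, so every group shared these alleles and agents. Heterotypic tumours hold glands of different Confetti colours, or of 1 colour beside unlabelled glands. In 20 such tumours (10 per mouse), the larger (major) and smaller (minor) clone were dissected apart. A further 23 tumours (10 from the female, 13 from the male) were sequenced undivided. The study's design gives 20 monoclonal tumours, and which of the 23 these were is not known here. The library names do not state clone size, so major and minor were assigned from the study's source data by library name. Mouse and sex coincide and cannot be told apart. The segment of the small intestine was labelled SI10, SI20 or SI30, with SI30 given for 2 divided tumours of the female alone. In female tumour 22 the clones carried different segment labels.

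Normalised counts summed to between 26140200 and 45909900 per library, and no depth in reads comes with them. The 82 members took between 3.54% and 7.94% of that sum (median 5.27%). *Rn18s*, the row for 18S rRNA, should be scarce in libraries of polyadenylated RNA, but took between 0.555% and 19.3% (median 3.48%). All 10 epithelial markers (*Epcam*, *Vil1*, *Cdx2* and others) were present in each group, the lowest being *Cdx1* with a mean of 1375 in minor clones, and their summed level ranged from 180927 to 730213. In bulk samples, fewer cells of a type and less RNA per cell cannot be told apart. Clones of 1 tumour and tumours of 1 mouse share their animal, so p-values measure the spread between tumours within 2 mice.

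The start of the transcript carries the pyrimidine run that gives TOP mRNAs their name. RefSeq promoter entries (250 bases before to 50 after the start) were matched for 60 of the 82 members and searched for CTTTCC, a pyrimidine run taken here as a simple stand-in for the TOP start. It began within 5 bases of the annotated start in 8 of the 60 (13.3%), against 190 of the 27025 genes in the RefSeq promoter set (0.703%). Anywhere in the window, 41.7% of the members and 16% of all genes held it on the coding strand, which reads like the mRNA. The ETS core CCGGAAG stood on either strand in 40% of the members and 9.93% of all, and the E-box CACGTG, which reads alike on both strands and is bound by MYC with MAX, in 10% and 8.09%. None of the 3 motifs contains another. These are matches of letters and not shown to be sites. The 8 starts are printed below from 15 bases before the RefSeq start, 5′ to 3′ on the coding strand, with CTTTCC in capitals. They are followed by those of *Rpl39* and *Rps21*, members called between clones below, which lack these letters there. Positions are on GRCm39, found by exact match of the RefSeq letters.
Rpl15, chr14:4198695-4198724, plus strand: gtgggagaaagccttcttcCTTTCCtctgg
Rpl18, chr7:45367480-45367509, plus strand: tgcgtctcgcaggccgctCTTTCCccgccc
Rpl28, chr7:4795949-4795978, plus strand: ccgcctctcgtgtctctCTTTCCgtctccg
Rpl35, chr2:38895129-38895158, minus strand: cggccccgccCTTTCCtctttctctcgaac
Rpl35a, chr16:32876837-32876866, plus strand: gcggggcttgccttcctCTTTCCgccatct
Rpl38, chr11:114559391-114559420, plus strand: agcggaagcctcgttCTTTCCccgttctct
Rps10, chr17:27854204-27854233, minus strand: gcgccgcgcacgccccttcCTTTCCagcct
Rps27, chr3:90120941-90120970, minus strand: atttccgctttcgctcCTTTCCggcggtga
Rpl39, chrX:36348861-36348890, minus strand: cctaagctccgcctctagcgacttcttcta
Rps21, chr2:179899157-179899186, plus strand: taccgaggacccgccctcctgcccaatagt

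To learn whether the members differed between the 2 clones of a heterotypic tumour, major and minor clones were compared within tumours. Most ribosomal protein transcripts were slightly lower in the major clone, and few passed the test over all genes. *Rpl39*, *Rps20* and *Rps21* fell (3 of 82 members, 3.66%) and none rose, against 0.475% of the 16428 genes tested that fell and 0.670% that rose (limma on log2(value + 1), tumour as a block, Benjamini-Hochberg adjusted p under 0.05). Without adjustment, 60 of 82 were lower at p under 0.05, against 10.0% of all genes, and 80 of 82 had a lower mean, against 48.2%. The median difference of the members was -0.18 on the log2(value + 1) scale and that of all genes 0.01. At least 16 of the 20 tumours had the lower value in the major clone for 20 members (24.4%), against 3.04% of all genes.

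**Figure D1:**
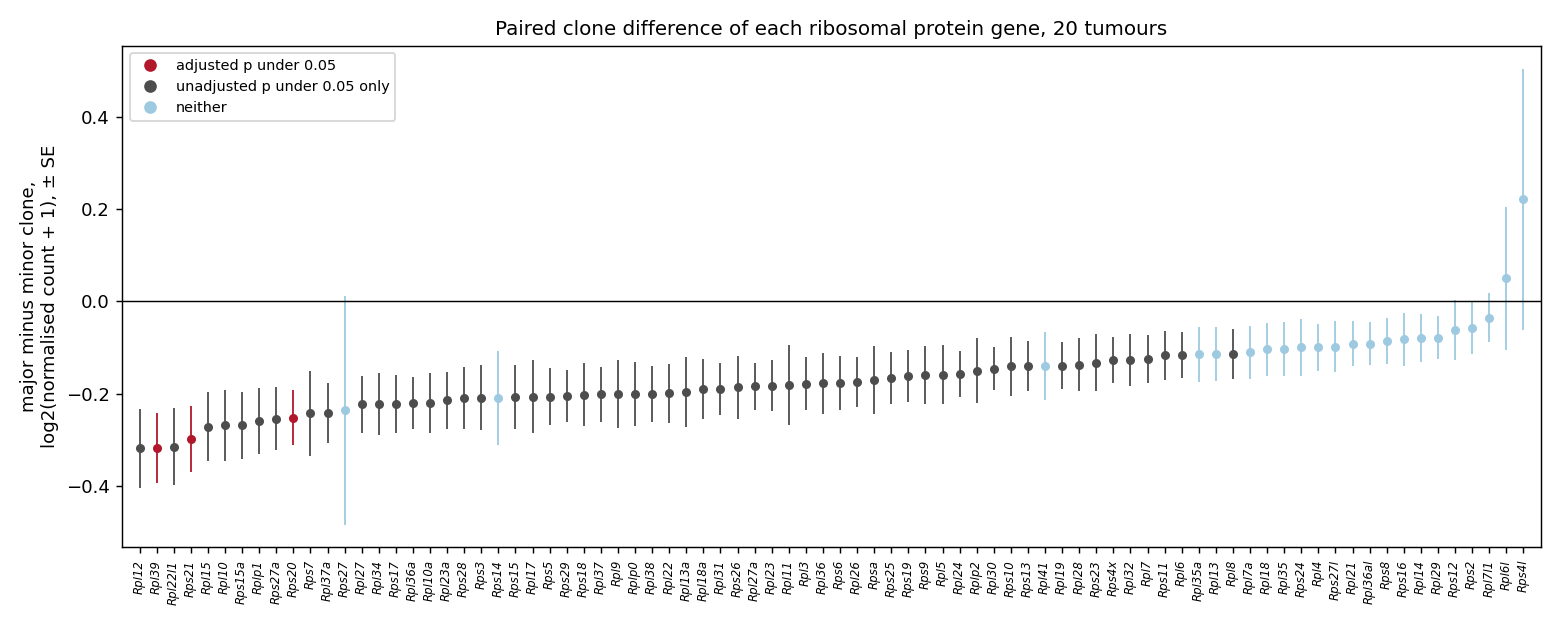
Major minus minor clone difference of each of the 82 genes on the log2(normalised count + 1) scale, as the mean over 20 tumours with its standard error from limma, ordered by size and coloured by p. All but *Rpl6l* and *Rps4l* lie below 0, and the 3 red points, *Rpl39*, *Rps21* and *Rps20*, pass the adjusted threshold.

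The 3 called genes encode proteins of both subunits. *Rpl39* (ENSMUSG00000079641, chrX:36345092-36349130, GRCm39) encodes a small protein that lines the exit tunnel for the nascent chain. Its normalised count was 6254 at the lowest, 10107 at the median and 15808 at the highest of the 20 minor clones, and 5697, 7378 and 19016 in the 20 major clones. The ranges overlapped, and *Rpl39* was lower in the major clone of 17 of 20 tumours, with a mean log2 difference of -0.32 (SE 0.08, limma adjusted p = 0.0438).

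*Rps20* (ENSMUSG00000028234, chr4:3792164-3835669) encodes a small subunit protein. It ran from 11548 through a median of 16549 to 24122 in minor clones and from 9989 through 13519 to 23617 in major clones. It was lower in 18 of 20 major clones, the most of any member, by a mean of -0.25 (SE 0.06, limma adjusted p = 0.0439). *Rps21* (ENSMUSG00000039001, chr2:179899114-179900249), a small subunit gene as well, ran from 5308 through 8286 to 13857 in minor and from 5242 through 6366 to 13647 in major clones. It was lower in 16 of 20 (mean -0.30, SE 0.07, limma adjusted p = 0.0444). For both genes the highest major clone came close to the highest minor clone, while the medians stood apart.

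Other members had differences as large but missed the threshold. *Rpl12* encodes a protein at the base of the stalk and had the lowest difference, -0.32 (SE 0.09, limma adjusted p = 0.0612). *Rpl22l1*, a paralogue of *Rpl22*, stood at -0.32 (SE 0.08, adjusted p = 0.0574), and *Rpl15* and *Rpl10* at -0.27 each. Among the stalk genes, which recruit elongation factors, *Rplp1* stood at -0.26 (adjusted p = 0.0621), *Rplp0* at -0.20 (0.0984) and *Rplp2* at -0.15 (0.209). The subunits did not stand apart by their medians: -0.18 over the 43 large subunit genes, from -0.32 to -0.08, and -0.18 over the 30 small subunit genes, from -0.30 to -0.06. All 73 of these lay below 0, and 33 and 23 of them respectively had an unadjusted p under 0.05.

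At the other end stood genes that left this pattern. *Rps4l*, a copy of *Rps4x*, had a difference of 0.22 (SE 0.28) and *Rpl6l*, a copy of *Rpl6*, of 0.05 (SE 0.15). Next came the paralogue *Rpl7l1* (-0.03, SE 0.05), *Rps2* (-0.06, SE 0.06), which encodes a protein at the mRNA entry channel, and *Rps12* (-0.06, SE 0.06). None of these 5 had an unadjusted p under 0.05.

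The number of calls moved with single tumours. It was 0 without any 1 of female tumours 22, 24, 26 and 30 or of male tumours 20, 22, 23, 25, 26, 27, 28 and 29. It was 31 without female tumour 19 and 18 without female tumour 29, 2 of the 4 tumours whose median member was higher in the major clone. It was 7 without male tumour 19, 6 without female tumour 20 or 28, 5 without female tumour 23 or 27, and 3 without male tumour 31. Calls over all genes moved too, to 859 (5.23%) without female tumour 19, 475 (2.89%) without female tumour 29, and between 25 and 121 in the fits with 0 members called. Leaving out male tumour 19 gave 191 (1.16%), female tumour 20 gave 179 (1.09%) and female tumour 28 gave 228 (1.39%). Female tumour 23 gave 337 (2.05%) and female tumour 27 gave 335 (2.04%). Male tumour 31 gave 441 (2.68%), beside 3 of 82 members (3.66%). The median difference stayed between -0.19 and -0.14 throughout.

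Single tumours differed more than genes did. The median member was lower in the major clone of 16 of 20 tumours, in 7 of 10 of the female and 9 of 10 of the male mouse. In the female mouse the tumour medians ran from -0.20 (tumour 22) through -0.06 to 0.18 (tumour 19). In the male mouse they ran from -0.84 (tumour 22) through -0.29 to 0.14 (tumour 19). All 82 members were lower in the major clone of male tumour 22, and 10 of 82 in that of female tumour 19. In other tumours the members were split, with 44 of 82 lower in female tumour 23 and 52 in female tumour 30.

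**Figure D2:**
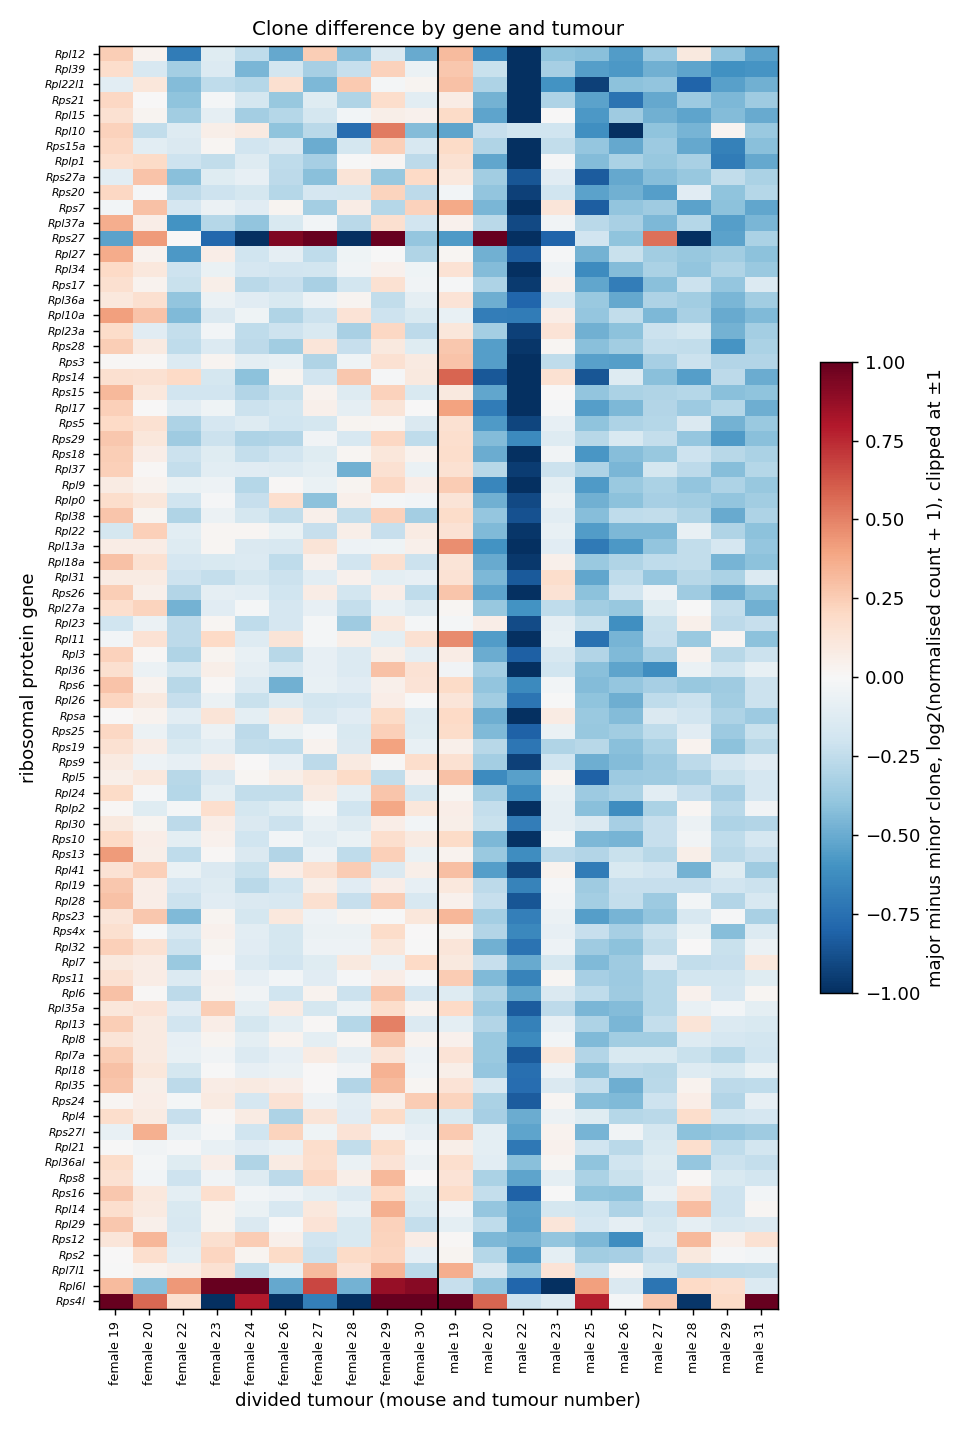
Major minus minor clone difference, log2(normalised count + 1) clipped at ±1, for 82 genes (rows, ordered by mean difference) in 20 tumours (columns, female left of the line, male right). Columns run from mostly red in female tumour 19 (10 of 82 lower) through mixed in female tumour 23 (44 lower) to blue throughout in male tumour 22, while the rows of *Rps27*, *Rpl6l* and *Rps4l* vary from tumour to tumour.

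Fitted within each mouse, the median member difference was -0.04 in the female (all genes 0.00480) and -0.30 in the male mouse (all genes 0.01). In the female, 59 of 82 members were lower, none with an unadjusted p under 0.05. In the male, 81 were lower, 74 of them with an unadjusted p under 0.05. No member was called in either mouse alone (limma), where 0 and 33 of all genes were. The test of the difference between the mice called 0 of 16428 genes (limma, smallest adjusted p of a member 0.633). Without adjustment, 59 of 82 members had a lower clone difference in the male at p under 0.05, against 3.62% of all genes, and the median member differed by -0.26. The lowest p was that of *Rpl8*, a large subunit gene, with -0.30 (SE 0.09). The mean over members in male minor clones, in log2 units, was 13.82 ± 0.23 (SD, n = 10), against 13.60 ± 0.19 (n = 10) in female minor clones. Major clones stood at 13.52 ± 0.33 (n = 10) and 13.57 ± 0.25 (n = 10).

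**Figure D3:**
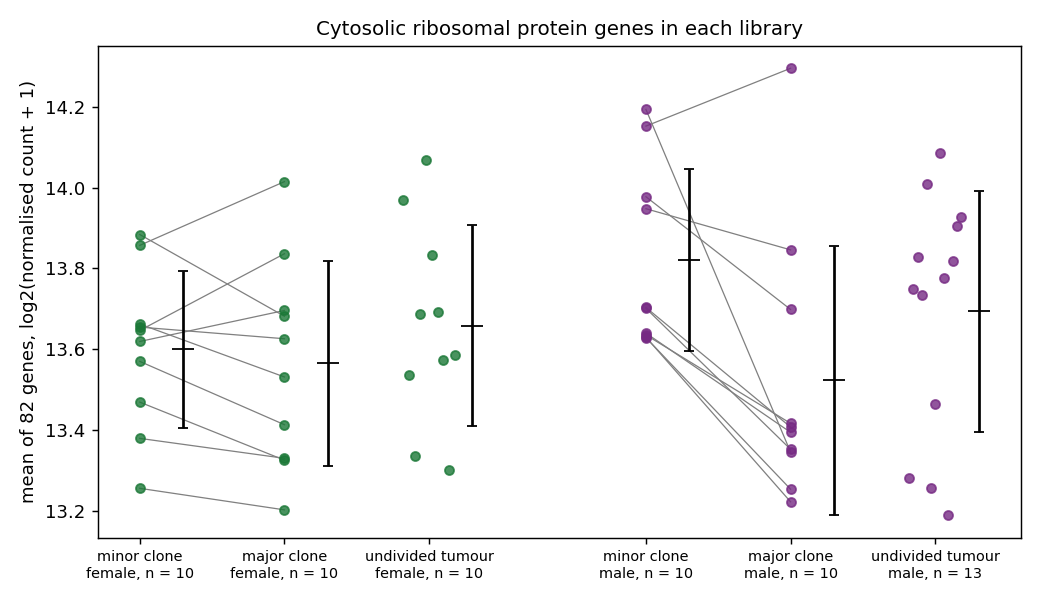
Mean of the 82 genes, log2(normalised count + 1), in each of 63 libraries by group and mouse, with grey lines joining the clones of 1 tumour and black marks giving the mean and SD. Male clone pairs mostly fall from minor to major, and male minor clones average 13.82 against 13.52 in major clones.

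The 18S rRNA row moved with the clones. *Rn18s* ranged from 286006 through a median of 1916150 to 4830940 in minor clones and from 161058 through 382063 to 4082270 in major clones. It was lower in 15 of 20 major clones (mean log2 difference -1.46, SE 0.33, limma adjusted p = 0.0375). With the *Rn18s* difference of each tumour as a covariate, 0 members were called and 1 had an unadjusted p under 0.05 (*Rps27a*, -0.23, SE 0.10). Over all genes the calls fell as well, from 188 to 1 of 16427. The median member difference at equal *Rn18s* was -0.06, with 74 of 82 lower against 50.9% of all genes. Over the paired tumours each member had a positive slope on *Rn18s*, from 0.000549 for *Rps12* to 0.37 for *Rps27*, with a median of 0.07 per log2 unit. None of the slopes passed the adjusted threshold, against 0.170% of all genes with a called positive slope. Without adjustment, 29 of 82 were positive at p under 0.05, against 4.68% of all genes. How far *Rn18s* reflects rRNA in the cells and how far its carry-over through selection of polyadenylated RNA cannot be told apart here, and its part in the clone difference was not tested beyond this fit.

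Undivided tumours gave a larger set for the relation to *Rn18s*. There *Rn18s* ran from 176683 through 959895 to 6081420. With the mouse as covariate, 64 of 82 members (78.0%) had a positive slope past the adjusted threshold and none a negative one, against 7.64% of 16510 genes with a positive and 9.43% with a negative call (limma). The median slope of the members was 0.13 and that of all genes -0.01 log2 units per log2 unit of *Rn18s*. *Rpl39* had the smallest p (slope 0.24, SE 0.04, limma adjusted p = 0.000206), followed by *Rpl15* (0.20, SE 0.03) and *Rps29* (0.13, SE 0.02). *Rps15a*, *Rps28*, *Rps21*, *Rplp2*, *Rpl17*, *Rpl34* and *Rpl22l1* complete the 10 with the smallest p, with slopes from 0.14 to 0.19. The lowest slopes were those of *Rps4l* (-0.16, SE 0.15) and *Rpl7* (close to 0, SE 0.03). *Rpl29* (0.03, SE 0.02) and *Rpl7l1* (0.04, SE 0.03) came next, and all of these were among the members that missed the threshold. With the 20 undivided tumours numbered 1 to 10 in each mouse, leaving out male tumours 15, 17 and 18, the last of which held the highest share of *Rn18s* (19.3%), 54 members were called, against 17.2% of all genes either way. In the 10 undivided tumours of the female mouse alone no member was called, with 10 of all genes called and 38 members at an unadjusted p under 0.05, while the median slope was 0.11. In the 13 of the male alone 30 were called, against 8.38% of all genes either way, with a median slope of 0.13. In the fit of all 23 undivided tumours, 6 of 12 stromal and 5 of 8 endothelial markers had called negative slopes. None of them had a called positive one. *Malat1*, a nuclear-retained RNA, had a slope of 0.57 (SE 0.07, limma adjusted p = 1.06e-05), above that of each member. The part of these RNAs and cells was not tested.

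**Figure D4:**
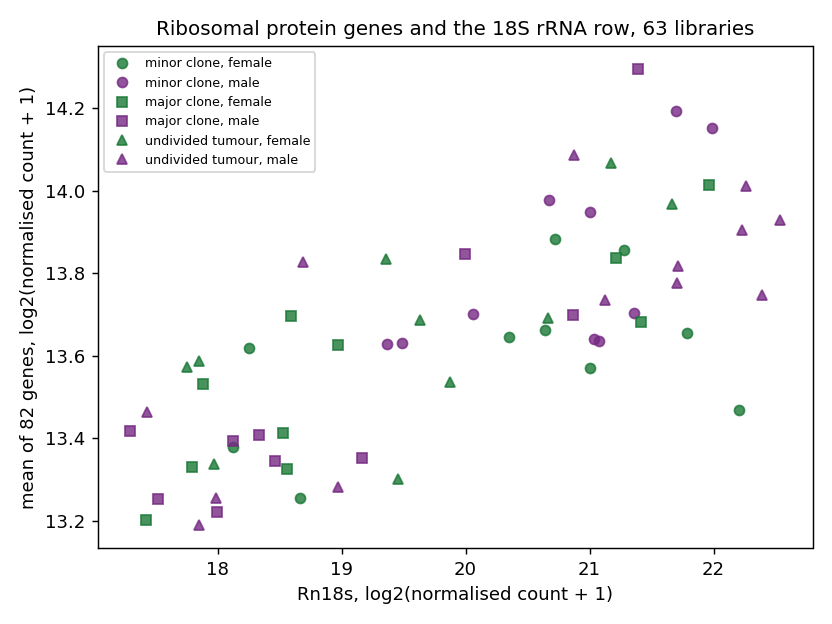
Mean of the 82 genes against *Rn18s*, both log2(normalised count + 1), in 63 libraries, by group (marker shape) and mouse (colour). Libraries with more *Rn18s* have higher ribosomal protein genes, in each group and in both mice.

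After removal of the mean of each group and mouse, the mean of the members correlated with *Rn18s* over the 63 libraries at Pearson's r = 0.73 and Spearman's rho = 0.72, as a description. Without the 2 libraries farthest from the median of *Rn18s*, r was 0.72. Within the 6 combinations of group and mouse, r ran from 0.47 (minor clones of the female, n = 10) to 0.86 (major clones of the male, n = 10). Both values come from the same libraries and share their scaling. The summed normalised counts of a library were less related to the members (r = 0.22).

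Transcript length also moved with these results. The members are short, with a median canonical transcript of 1100 bases against 3007 for all genes tested. Among genes that are not members, the median clone difference was -0.03 for transcripts up to 500 bases (645 genes), -0.06 up to 1000 (1327), -0.03 up to 2000 (2926), 0.00447 up to 4000 (5622) and 0.05 beyond (5568). Their median slopes on *Rn18s* in undivided tumours were 0.02, 0.05, 0.03, -0.00350 and -0.04 in the same order. With the trend on length removed from each library, 3 members were called between clones, and 0.992% of all genes. The median member difference was then -0.14, against 0.00249 for all genes, and 79 of 82 were lower. The same step left 34 members called for the slope in undivided tumours, where the calls over all genes are not given here.

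Other cell types were compared between clones beside the members. All 12 stromal markers were in the table, and 11 were higher in major clones (10 with an unadjusted p under 0.05, none called). Their summed level ran from 2544 to 30760 in major and from 2604 to 32204 in minor clones. *Myh11*, of smooth muscle, stood at 0.996 (SE 0.31). Of 16 immune markers, 14 were tested and all of these were higher in major clones (8 unadjusted, none called), with sums from 1848 to 6359 in major and 1045 to 7192 in minor clones. Of 8 endothelial markers, 5 were higher (sums 1506 to 13753 and 1651 to 13816), and the 10 epithelial markers were all higher, with *Vil1* at 0.33 (SE 0.09). No marker of these lists was at 0 in all libraries of a group. Over the 63 libraries, centred as above, the members' mean correlated with the mean of the stromal list at r = -0.60 and of the epithelial list at r = -0.46. The part of these cells in the clone difference was not tested. Proliferation markers had a median clone difference of 0.06, with 0 of 13 past an unadjusted p of 0.05, and r = 0.29 with the members. Of 9 nuclear-retained and mitochondrial RNAs, 6 were higher in major clones, 5 of them at an unadjusted p under 0.05. The other 3 were lower, 1 of them at an unadjusted p under 0.05, and none of the 9 was called. The median was 0.39. Those with the smallest p were mitochondrial, *mt-Nd4* (0.51, SE 0.16), *mt-Atp6*, *mt-Cytb* and *mt-Co1*.

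Undivided tumours were compared with each clone class, using the mouse as covariate. These comparisons share libraries with each other and with the clone comparison. The members lay near the minor clones and above the major clones, and none was called in either comparison (limma). Against minor clones the median member differed by -0.04 (all genes -0.01), 60 of 82 were lower against 53.3% of all genes, and 1 had an unadjusted p under 0.05 and was lower, against 9.32% of all genes. There 3.70% of 16491 genes were called. This direction was not stable. After quantile normalization 80 members were lower, 26 of them at an unadjusted p under 0.05 (median -0.17, all genes -0.02). In the female mouse alone 65 of 82 were higher (median 0.05, all genes 0.00423).

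Against major clones the median member was 0.15 higher in undivided tumours, where all genes had a median of -0.01. Of the 82, 78 were higher, against 47.8% of all genes, and 14 at an unadjusted p under 0.05, against 4.82%. Counted either way it was 15, with *Rps4l* lower, and this number was 1 after quantile normalization (median 0.08) and 1 with equal sums, 3 with undivided tumours numbered 1 to 10 only (median 0.10), and from 4 (without male major clone 22) to 39 (without male major clone 19) with 1 library left out. The shares of all genes at an unadjusted p in these fits are not given here. All genes had a median of 0.00941 after quantile normalization and -0.06 with equal sums. Only 2 genes of 16510 were called in this comparison (0.0121%), neither of them a member. *Rps27* (0.52, SE 0.35), *Rps14* (0.37, SE 0.17), *Rpl9* (0.30, SE 0.13), *Rps21* (0.29, SE 0.12) and *Rps7* (0.26, SE 0.12) had the largest positive differences. *Rps4l* lay lowest at -0.84 (SE 0.37), followed by *Rpl29* (-0.03), *Rpl6l* (-0.01) and *Rpl7l1* (-0.01). With *Rn18s* as a covariate the median fell to 0.01, with 51 of 82 higher.

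Segments were compared to ask whether position along the small intestine moved the members. The mean over members was 13.74 ± 0.25 log2 units (SD, n = 12) in undivided tumours of SI10 and 13.61 ± 0.29 (n = 11) in those of SI20. The median member differed by -0.13 in SI20, with 76 of 82 lower against 50.1% of all genes. It was -0.05 after quantile normalization (56 lower), -0.06 with equal sums (60 lower) and -0.05 with the length trend removed (64 lower). No member was called, with 1 at an unadjusted p under 0.05 (*Rps27*, -1.11, SE 0.43) against 4.14% of all genes that were lower, and 0.170% of all genes called. With *Rn18s* as a covariate 53 of 82 stood higher and the median became 0.01. In divided tumours with clones averaged (17 tumours), all 82 members were lower in SI20, against 48.8% of all genes, with a median of -0.22. None was called (smallest limma adjusted p 0.274), with 32 of 82 at an unadjusted p under 0.05, against 5.90% of all genes, and 0.280% of all genes called either way. That 32 was 5 after quantile normalization, 6 with equal sums, 0 in the female and 27 in the male mouse alone, and from 2 (without male tumour 19) to 69 (without female tumour 23) with 1 tumour left out. The shares of all genes at an unadjusted p in those fits are not given here. *Rps14* stood at -0.39 (SE 0.16) and *Rpsa*, also known as the laminin receptor, at -0.30 (SE 0.12). With *Rn18s* as covariate the median was -0.13 and 80 of 82 were lower. The clone difference itself did not differ detectably between segments: 0 of 16436 genes were called (limma), and 0 of 82 members had an unadjusted p under 0.05, against 1.65% of all genes that were higher and 2.41% that were lower. The median was -0.08, with 76 of 82 lower against 52.3% of all genes. It was -0.19 without male tumour 22, with 19 members at an unadjusted p under 0.05, and -0.02 without male tumour 19. The share of all genes beside those 19 members is not given here.

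The members were also compared with each other. After removal of the mean of each group and mouse, each gene was correlated with the mean of the other 81 over 63 libraries. The median r was 0.93 and 56 of 82 were above 0.9. *Rps25* followed the others most closely (0.99), with *Rpl34* and *Rps18* next (0.98 each). Only 3 fell under 0.5: *Rps27* (0.48), *Rpl6l* (0.30) and *Rps4l* (-0.07). *Rpl7l1* (0.60), *Rpl10* (0.65) and *Rpl7* (0.66) came just above. In the clone differences alone 4 were under 0.5, *Rps27* (0.11), *Rps4l* (0.22), *Rpl6l* (0.31) and *Rpl10* (0.32).

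**Figure D5:**
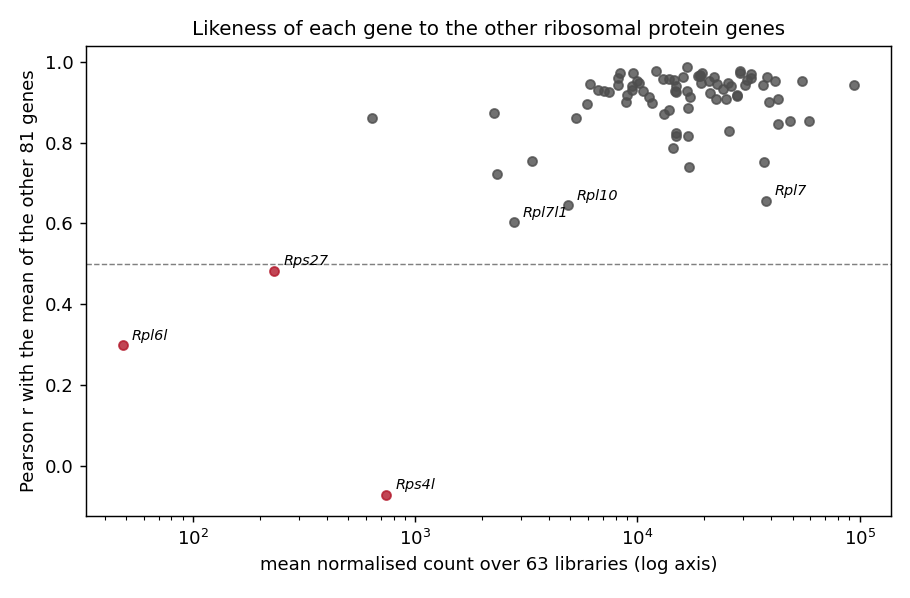
Pearson's r of each gene with the mean of the other 81, over 63 libraries centred within group and mouse, against its mean normalised count on a log axis. Most genes lie above 0.8, and the 3 red points under the dashed line at 0.5 are *Rps27*, *Rpl6l* and *Rps4l*, all of low level.

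*Rps4l* (chr6:148256098-148257431) and *Rpl6l* (chr10:110961712-110962582, annotated as a processed pseudogene) are each as long as their transcript and so hold no intron. *Rps4l* varied more than any other member (SD 1.32 log2 units after centring), from 23.1 to 3373 normalised counts over all libraries. In male tumour 22 it stood at 2922 and 3373 in the major and minor clone, while in female tumour 19 it stood at 199 and 23.1. Over the 20 tumours the level in the major clone followed that in the minor clone loosely (Pearson's r = 0.52, Spearman's rho = 0.42, r = 0.27 without the 2 farthest tumours, as a description).

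*Rps27* (chr3:90119819-90120977) encodes a zinc finger protein of the small subunit and had a mean of 232, while its retrocopy row *Rps27rt* had 16547. With rows named as its copies added, 98.6% of the sum lay in the copies. *Rps27rt* stood at -0.34 between clones (SE 0.09, limma adjusted p = 0.0633). Likewise *Rpl10* had a mean of 4859 and *Rpl10-ps3* 20751. How Salmon divided reads between such near-identical rows is not known here, so single values of *Rps27* and *Rpl10*, and of the 59 members with rows named as copies, are uncertain. In 3 members the copies held over 50% of the sum. With the copies added, the number of calls between clones was again 3.

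By level, *Rplp0* had the highest mean (94292 normalised counts), followed by *Rps2* (59422), *Rpsa* (54949), *Rps14* (48831) and *Rpl13a* (42902). Per kilobase of canonical transcript, *Rps14* stood at 80183, *Rpl41* at 76344, *Rplp1* at 75973 and *Rplp0* at 69078. At the low end per kilobase were *Rpl6l* (55.5), *Rps27* (444), *Rpl12* (485) and *Rps4l* (555).

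Of the ribosomal protein genes outside the naming rule, *Rack1*, whose protein sits on the head of the small subunit, stood at -0.25 between clones (SE 0.09, limma adjusted p = 0.11). *Rps3a1* stood at -0.12 (SE 0.05, limma adjusted p = 0.124) and was lower in 16 of 20 major clones. *Fau*, a fusion with a small subunit protein, stood close to 0 (SE 0.04). Among 50 ribosome biogenesis factors none was called between clones, 37 were lower and the median was -0.05, with *Imp3* (-0.19, SE 0.05) and *Nip7* (-0.22, SE 0.07) at the smallest p. Of 16 genes of RNA polymerase I transcription 1 fell, *Polr1c*, a subunit shared with RNA polymerase III (-0.28, SE 0.07, limma adjusted p = 0.0438), and 13 were lower. Of 37 initiation and elongation factors none was called and 25 were lower (median -0.05), with *Eif3m* (-0.18, SE 0.05) at the smallest p. Of 16 regulators of ribosome production none was called, and 12 were higher (median 0.10). *Eif4ebp1*, a translation repressor that mTOR inhibits, had the smallest p (-0.21, SE 0.07). In the slope on *Rn18s* over undivided tumours, 4 of 50 biogenesis factors were called positive and 1 negative, 4 of 16 RNA polymerase I genes were called positive, and 6 of 37 translation factors positive and 1 negative, beside the 7.64% and 9.43% of all genes given above.

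Outside the members, the genes closest to their mean over the 63 libraries were *Gm10275* (r = 0.97), *Gm7536* (0.96), *Gm15500* (0.95), *Naca*, *Eif3k* and *Eef1b2* (0.95 each), *Gm11518* (0.94), *Rack1* (0.93), *Rpl31-ps8* (0.93) and *Rps3a1* (0.93). *Naca* and *Eef1b2* encode a nascent chain chaperone subunit and an elongation factor subunit. *Rpl31-ps8* is named as a copy of the member *Rpl31*, and *Rack1* and *Rps3a1* are the ribosomal genes given above. Whether the rows with *Gm* names share reads with members was not tested. Of 16407 genes, 22 had r above 0.9, and the median r was -0.06. At the other end stood *Mia3* (-0.84) and *Edem3* (-0.83), which act in the endoplasmic reticulum. The 10 highest had a median transcript of 865 bases and the 10 lowest of 6983.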

How the data were processed

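Libraries of polyadenylated RNA (stranded, paired-end) were made from 63 tumour samples with an RNA integrity number above 8. The authors trimmed reads with Trimmomatic 0.39, estimated counts per gene with Salmon 1.9.0 against Gencode on GRCm39, and deposited the estimates scaled between libraries, a signal on a linear scale (normalised counts). The submitters' notes also name FastQC 0.11.9, STAR 2.7.7a and Picard 2.27.3 (quality control) and DESeq2. How values were scaled is not given in the sources used here, and whole reads could not be recovered, so depth is unknown, and the error given is the spread over tumours or libraries. All columns were used.

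Testing used R 4.3.3 and limma 3.58.1, whose eBayes step had a trend, on log2(value + 1) of genes averaging 10 or more in the libraries of a comparison, with Benjamini-Hochberg adjustment over all genes and a threshold of 0.05. Fold changes on this scale understate those of low genes. Tumour was the block for paired clones, and mouse a covariate elsewhere. Clones of the same tumour share the tumour number. Their deviations from group and mouse means correlated above 0.1 in 16 of 20 tumours (median 0.21). Figures used matplotlib 3.10.9. The length trend was a lowess (span 0.3) on non-members. Positions are from a later Gencode release on GRCm39 and promoters from RefSeq on GRCm38. Tests were tried on simulated data.

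Members and lists were chosen with earlier results of these data known. Named genes were those called (up to 10 each way), the 5 highest and lowest differences, members with r under 0.5 to the rest or the 3 highest r, the 5 highest and lowest levels, *Fau*, *Rack1*, paralogues, *Rn18s*, the smallest p of each list and the 10 genes most like the members. Other genes were named after their values were seen, and results of 2 single genes are not reported here. Alternatives were other pseudocounts, filters and scalings, no trend, *Rn18s* as covariate, each mouse alone, segments, no block, and each tumour or library left out. In the alternatives, counts of members at an unadjusted p are given without the share of all genes. Removing the length trend, adding copies, keeping undivided tumours numbered 1 to 10, and the alternatives for clone differences between mice or segments and for slopes were chosen after seeing the data.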

Additional observations from a re-analysis of the deposited data

How the results depend on the processing

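Between clones, 3 members were called, all lower. The number was 0 with no filter on low values, without the trend, with *Rn18s* as covariate, in each mouse alone, in SI10 and SI20 tumours with clones labelled alike, and with no replicate block, that is without pairing the clones. Over all genes these fits called 84, 89 and 1, then 0 (female) and 33 (male), then 33 and 1, against 188. It was 36 after quantile normalization and 39 after scaling to the same sum without *Rn18s*, each including the 3. These scalings also moved the calls over all genes, from 78 lower of 188 to 211 of 344 and 436 of 603. Leaving out 1 tumour gave 0 to 31. The median difference kept its sign under 15 alternatives (-0.30 to -0.04). Single genes reversed: *Rpl6l* to -0.00597 with equal sums, -0.296 in the male, -0.0715 in SI10 and SI20 and -0.00895 without female tumour 24 (up to 0.121 without male tumour 23), *Rpl7l1* to 0.0906 with *Rn18s* as covariate and 0.0458 in the female, *Rps12* to 0.0743 in the female and 0.0127 with the length trend removed, and *Rps2* to 0.0617 in the female. Why these moved was not tested.

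Against minor clones, undivided tumours gave 0 called members and 1 in the male mouse alone, where 4.59% of all genes were called. With both mice, equal sums moved the median of all genes in this comparison from -0.01 to -0.12, and the calls from 235 lower of 610 to 628 of 891. For the slope on *Rn18s* in undivided tumours, 64 members were called, 38 after quantile normalization (all genes, 945 negative of 2270), 34 with the length trend removed, 30 in the male and 0 in the female mouse alone. Leaving out 1 library gave 53 to 71, and the calls over all genes in those fits are not given here. Depth in reads is not known, so limits of detection could not be given.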
